A study of Homo sapiens with 9 samples.

Results

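Fatty acid synthesis and desaturation were followed through 10 genes, taken by name from the count table of MDA-MB-231 cells: ACLY, ACSS2, ACACA, FASN, ELOVL5, ELOVL6, SCD, FADS1, FADS2 and ACSL3. The table held 59453 gene names, of which 16556 passed the expression filter and were tested, and all 10 genes were among these. MDA-MB-231 is an established human triple-negative breast cancer (TNBC) line. RNA-Seq was performed on 3 groups of 3 libraries: untreated cells, cells treated with TEPA for 8 h and cells treated with TEPA for 24 h. TEPA is a polyamine copper chelator, and the study used the 2 times to separate early from late transcriptional responders to copper depletion. The concentration is 8 mM in the sample labels and 4 mM in the RNA sequencing methods. All groups were the same unmodified line in serum-containing medium, and a single untreated group served both times. The time at which the untreated cells were harvested is not given in the sources used here, so time in culture and treatment cannot be told apart. The labels do not say whether replicates came from separate cultures, so p-values measure only the spread between these libraries, which may be technical. In bulk RNA, fewer cells of a kind and less RNA per cell cannot be told apart.

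Cells make fatty acids from acetyl-CoA in the cytosol, where acetyl-CoA is carboxylated to malonyl-CoA and both are condensed by fatty acid synthase into palmitate. Palmitate is then lengthened by elongases of the endoplasmic reticulum, given double bonds by desaturases and activated to acyl-CoA for membrane lipids and lipid droplets. Many of these genes are activated by sterol regulatory element-binding proteins, membrane-bound factors that are released when sterol or unsaturated fatty acid supply is low, and TNBC cells can draw on both synthesis and uptake from serum.

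At 8 h of TEPA all 10 genes were lower than in untreated cells, with the desaturases SCD and FADS2 and the acyl-CoA synthetase ACSL3 lowest relative to their untreated level. SCD fell by 70.8%, FADS2 by 68.3%, ACSL3 by 52.6% and FADS1 by 36.9%, while ACLY fell by 6.62%. At 24 h 6 genes were lower than in untreated cells (FADS2, ACSS2, SCD, ACSL3, FASN and ACLY), and ACACA, ELOVL5, ELOVL6 and FADS1 did not pass the test. From 8 h to 24 h SCD rose 2.18-fold, FADS2 1.55-fold, ACSL3 1.45-fold and FADS1 1.44-fold, whereas ACSS2 and ACLY fell further. Summed over the 10 genes, expression was 4957 ± 802 CPM in untreated cells, 2871 ± 50.4 at 8 h and 3584 ± 141 at 24 h (SD, n = 3). CPM is the count of a gene per 1000000 counts of its library, with library sizes scaled by TMM factors.

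The sequence before the starts of these genes was taken from RefSeq on GRCh38.p14, as the 250 bases before each annotated start site, and 9 of the 10 genes had such a window. These held 14 windows, since some genes have several starts. The windows of SCD and ACLY are shown because they lie outside annotated exons and belong to the genes with the largest and the smallest fall at 8 h. SCD is at chr10:100346983-100347232 on the plus strand and ACLY, for the farther upstream of its 2 windows, at chr17:41919023-41919272 on the minus strand. The GENCODE annotation used for gene positions begins ACLY farther upstream, at chr17:41930542. The ACLY window thus precedes a RefSeq start but lies inside the GENCODE span of the gene. Each is written 5′ to 3′ toward the start site, and capitals mark CCAAT boxes (CCAAT, or ATTGG on the other strand) and GC boxes (GGGCGG or CCGCCC).
SCD: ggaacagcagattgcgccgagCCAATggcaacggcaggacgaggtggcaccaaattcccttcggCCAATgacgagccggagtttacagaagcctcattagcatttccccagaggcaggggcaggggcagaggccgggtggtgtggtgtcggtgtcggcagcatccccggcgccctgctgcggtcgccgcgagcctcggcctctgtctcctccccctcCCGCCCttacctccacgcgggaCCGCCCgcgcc
ACLY: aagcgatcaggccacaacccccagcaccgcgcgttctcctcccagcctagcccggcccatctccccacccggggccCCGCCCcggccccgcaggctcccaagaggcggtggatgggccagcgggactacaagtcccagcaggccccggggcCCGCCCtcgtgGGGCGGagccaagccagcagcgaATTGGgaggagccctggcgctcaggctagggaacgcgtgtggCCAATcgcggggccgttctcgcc
The SCD window held CCAAT at 229 and 186 bases before the start and a GC box at 33 and 11 bases. In the ACLY window CCAAT boxes began 65 and 23 bases before the start, and GC boxes 174, 99 and 88 bases before it. CCAAT stood in 8 of the 14 windows, from 6 genes, and in 32.7% of the 16005 windows of all genes tested. The 2 windows of ACLY overlap and hold the same CCAAT boxes, and those of FADS2 overlap too. The windows are therefore not independent, and no share per gene was computed for all genes. GGGCGG stood in 11 windows, from 8 genes, against 62.6% of all windows. The core of the sterol regulatory element, searched as TCACNCCAC on both strands, stood in 0 of the 14 windows and in 0.875% of all windows. CACGTG, the E-box, stood in 1 window, that of ELOVL5, against 8.1% of all windows. Most of the 14 windows overlap annotated exons, by 229 of the 250 bases for ELOVL5, 194 for FADS1 and up to 196 for FADS2. The motif counts therefore include exonic sequence. Both strands were searched for every motif and overlapping matches were counted. A match or its absence describes these letters in this window only.

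Compared per exon length, as RPKM (CPM per kilobase of exon), SCD was the most abundant of the 10 in untreated cells, at 278 ± 66.6 (SD, n = 3). FASN followed at 118 ± 16.5 and ACLY at 111 ± 4.78, and the libraries of these 2 genes overlapped. ELOVL5 was at 72.1 ± 1.51. FADS1 at 46.1 ± 8.91 and FADS2 at 41.1 ± 13.1 overlapped each other. ACSL3 was at 22.3 ± 1.58. ELOVL6 at 17.1 ± 1.35 and ACSS2 at 13.9 ± 1.81 overlapped slightly, and ACACA was lowest at 8.99 ± 0.307 RPKM. At 8 h the order at the top had changed, with ACLY at 104 ± 1.69, FASN at 88.0 ± 3.28 and SCD at 81.2 ± 3.27 RPKM and no overlap among the 3. The lowest FASN library, at 84.45, lay barely above the highest of SCD, at 84.33, so the order of these 2 is not firm. At 24 h SCD was again first at 177 ± 11.2, above ACLY at 93.5 ± 2.32 and FASN at 81.6 ± 5.63 RPKM. Exon lengths were summed over all annotated transcripts, so a gene with long alternative exons has too low a value.

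**Figure D1:**
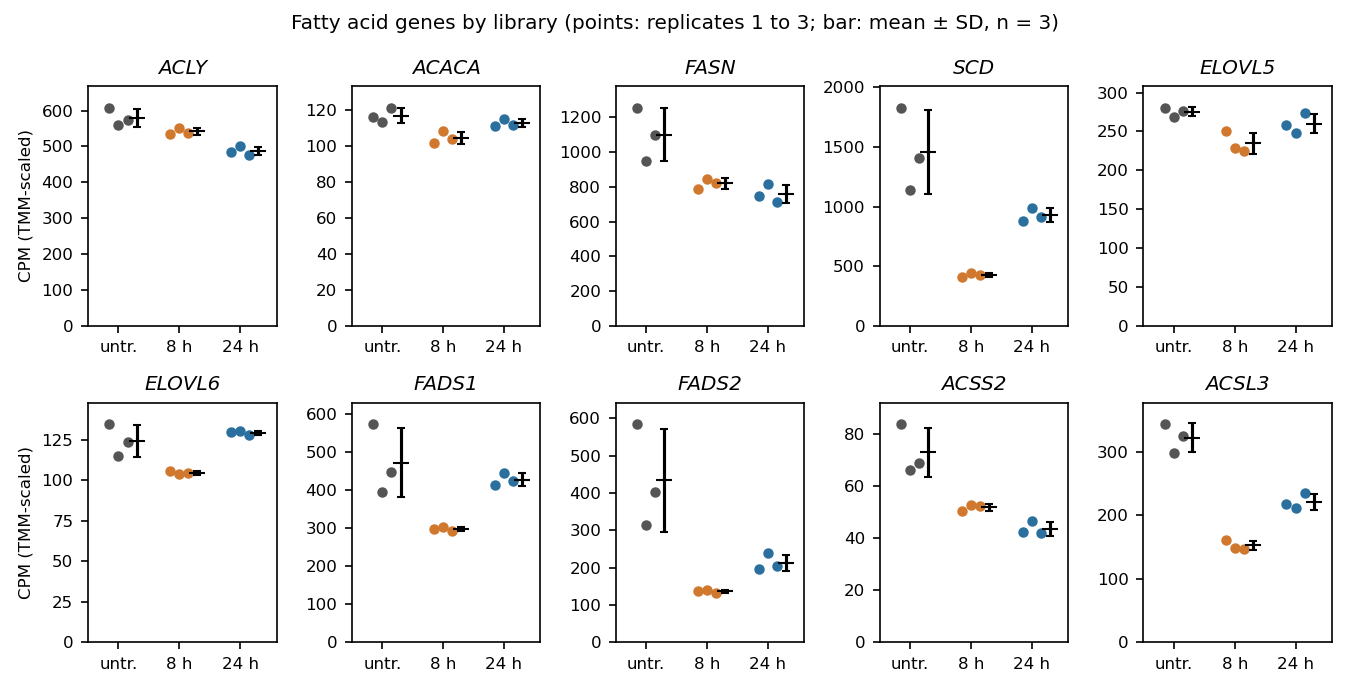
Expression of the 10 fatty acid genes in each library, in TMM-scaled CPM on axes that start at 0, with 1 panel per gene. Points are replicates 1 to 3 and the bar beside them is the mean ± SD (n = 3). In every panel the 3 TEPA 8 h points lie below the 3 untreated points, and for SCD they sit between 408 and 442 against 1136 to 1829 CPM.

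The libraries held 34633755 to 49342659 counts, and every member had at least 1512 counts in each library. The untreated libraries were uneven for these genes. Replicate 1 lay above the group mean for 9 of the 10, by a median of 0.157 on the log2 scale, and replicate 2 lay above it for 0 of the 10, with a median of -0.12, and the SD in CPM was smaller in both TEPA groups than in the untreated one for 9 of the 10. The exception was ELOVL5, with an SD of 5.76 CPM in untreated cells, 13.6 at 8 h and 12.7 at 24 h. Mitochondrially encoded genes took 1.79 to 2.91% of the counts in untreated cells, 3.61 to 4.02% at 8 h and 1.89 to 2.02% at 24 h. With these genes left out of the counts, all 10 members were still called lower at 8 h. Markers of this line (VIM, CD44, KRT18, EGFR), not all of them mesenchymal, summed to 5005 to 5422 CPM in untreated cells, 6121 to 6272 at 8 h and 4692 to 4972 at 24 h. The sum does not show which of these genes moved. Of 5 luminal receptor markers, PGR was at 0 in every library, ESR1 had 2 to 9 counts, and the sum was 91.0 to 102 CPM in untreated cells, 84.9 to 90.5 at 8 h and 69.7 to 71.6 at 24 h. Adipocyte markers summed to 0.373 to 1.11 CPM, with LEP at 0 in every library and 1 of 5 passing the filter. Fibroblast markers, of which 1 of 5 passed the filter, summed to 13.2 to 14.3 CPM in untreated cells, 32.0 to 32.9 at 8 h and 17.5 to 19.1 at 24 h. Leukocyte markers, with 2 of 4 at 0 throughout and 1 of 4 passing the filter, summed to 2.89 to 5.17, 0.601 to 0.925 and 3.75 to 4.84 CPM. At 8 h the sums of the line, luminal, fibroblast and leukocyte lists did not overlap those in untreated cells, those of the adipocyte list did, and the part of these lists in the results was not tested.

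Acetyl-CoA is supplied by ACLY, which cleaves citrate, and by ACSS2, which activates acetate. ACLY (chr17:41866917-41930542 on hg38, minus strand) was at 608, 559 and 574 CPM in untreated replicates 1 to 3, at 535, 552 and 539 CPM at 8 h, and at 485, 500.2 and 477 CPM at 24 h. The 3 groups did not overlap, and the level stepped down from untreated to 8 h to 24 h. After 8 h the log2 fold change of ACLY was -0.10 with a standard error of 0.04 and an adjusted p of 0.0422 by edgeR's quasi-likelihood test. That call was lost when any 1 library was left out other than untreated replicate 2, with adjusted p between 0.0108 and 0.120 over the 6 libraries left out and a fold change of -0.07 without untreated replicate 1. It was also lost with upper-quartile factors (adjusted p 0.0739) and with the 2 groups fitted alone (0.0504). At 24 h ACLY was at -0.25 ± 0.04 against untreated cells (log2 fold change ± standard error, adjusted p 4.59e-05), and this call held under every alternative run except the log2 fold limit of 0.5, which its change does not reach.

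ACSS2 (chr20:34872146-34927962, plus strand) showed the same order of groups with larger steps. Its libraries were at 83.7, 66.0 and 68.9 CPM in untreated cells, 50.2, 52.8 and 52.4 CPM at 8 h and 42.2, 46.7 and 42.0 CPM at 24 h. No TEPA library reached the lowest untreated one, and no 24 h library reached the lowest at 8 h. The log2 fold change was -0.49 ± 0.07 after 8 h of treatment (adjusted p 3.92e-05), while after 24 h it was -0.74 ± 0.07 (adjusted p 4.97e-07).

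ACACA, acetyl-CoA carboxylase, makes the malonyl-CoA that commits carbon to fatty acids. ACACA (chr17:37084992-37406836, minus strand) was at 116, 114 and 121 CPM in untreated cells, 102, 108 and 104 CPM at 8 h, and 111, 115 and 112 CPM at 24 h. The 8 h libraries lay below all others, and the untreated and 24 h libraries overlapped. Its log2 fold change against untreated cells was -0.16 ± 0.04 after 8 h of treatment (adjusted p 0.0031), while after 24 h it was -0.05 ± 0.04 (adjusted p 0.294).

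FASN, fatty acid synthase, builds palmitate from acetyl-CoA and malonyl-CoA. FASN (chr17:82078338-82098294, minus strand) was at 1256, 948 and 1099 CPM in untreated cells, 787, 848 and 825 CPM at 8 h, and 750.3, 817 and 713 CPM at 24 h. Both TEPA groups lay below the untreated one and overlapped each other. It was lower by 25.5% after 8 h, at a log2 value of -0.42 ± 0.07 (adjusted p 0.000224). After 24 h it was lower by 30.9%, at -0.53 ± 0.08 (adjusted p 2.15e-05). FASN was the only one of the 10 that was not called between 8 h and 24 h (log2 fold change -0.11 ± 0.07, adjusted p 0.234), although without the low-count filter its adjusted p was 0.0311.

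The elongases ELOVL6, which extends palmitate toward stearate, and ELOVL5, which extends polyunsaturated chains, changed by less than 0.5 on the log2 scale. ELOVL6 (chr4:110045846-110199199, minus strand) was at 135, 115 and 124 CPM in untreated cells, 106, 104 and 104 CPM at 8 h, and 129.8, 130.2 and 128 CPM at 24 h. Its 8 h libraries lay below all others and its 24 h libraries lay within the untreated range. ELOVL5 (chr6:53267398-53349179, minus strand) was at 280.3, 269 and 276 CPM in untreated cells, 250.2, 229 and 225 CPM at 8 h, and 259, 248 and 273 CPM at 24 h. Here the untreated libraries lay above all 8 h libraries, and the 24 h libraries overlapped both other groups. The log2 fold change at 8 h was -0.25 ± 0.05 for ELOVL6 (adjusted p 0.000415) and -0.23 ± 0.05 for ELOVL5 (adjusted p 0.000626). At 24 h it was 0.06 ± 0.05 for ELOVL6 (adjusted p 0.34) and -0.08 ± 0.05 for ELOVL5 (adjusted p 0.146). Without untreated replicate 1 ELOVL6 was called higher at 24 h, at 0.11 (adjusted p 0.0216), and without untreated replicate 2 its value was -0.00052.

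The desaturases SCD and FADS2 had the largest falls at 8 h and the largest rises from 8 h to 24 h of the 10 genes. SCD, which places the double bond that turns stearate into oleate, spans chr10:100347233-100364826 on the plus strand, just downstream of the window shown above. It was at 1829, 1136 and 1411 CPM in untreated cells, 408, 442 and 427 CPM at 8 h, and 877, 992 and 915 CPM at 24 h. The 3 groups did not overlap, and the 24 h libraries stood between the others. The log2 fold change was -1.78 ± 0.11 after 8 h of treatment (adjusted p 1.14e-08), while after 24 h it was -0.65 ± 0.11 (adjusted p 0.000136), and over the libraries left out in turn it ran from -1.94 to -1.58 and from -0.81 to -0.46. The pseudogene SCDP1 had 9 to 82 counts in these libraries, against 15683 to 68621 for SCD.

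FADS2, the delta-6 desaturase, and FADS1, the delta-5 desaturase, act in turn on polyunsaturated fatty acids. FADS2 (chr11:61792980-61867354, plus strand) was at 584, 314 and 404 CPM in untreated cells, 138, 142 and 133 CPM at 8 h, and 198, 238 and 205 CPM at 24 h. Like SCD it had 3 groups without overlap and 24 h in the middle. FADS2 was at -1.66 ± 0.15 after 8 h of treatment (adjusted p 3.24e-07), while after 24 h it was -1.02 ± 0.15 (adjusted p 2.53e-05), the lowest of the 10 at the later time. Without untreated replicate 1, the highest library, these values were -1.39 and -0.75. FADS1 (chr11:61799627-61829318, minus strand) was at 572, 395 and 447 CPM in untreated cells, 297, 302 and 293 CPM at 8 h, and 414, 446 and 423 CPM at 24 h. All 24 h libraries lay within the untreated range, and all 8 h libraries lay below it. FADS1 was at -0.66 ± 0.09 after 8 h of treatment (adjusted p 1.67e-05), while after 24 h it was -0.14 ± 0.09 (adjusted p 0.197). The 24 h value depended on the untreated libraries, being 0.021 without replicate 1 and -0.26 without replicate 2, where the adjusted p was 0.00588. It also passed with no low-count filter (adjusted p 0.00158). FADS1 and FADS2 overlap on opposite strands, and the counting used strand. The span of FADS2 also overlaps that of FEN1 on the same strand. Spans of ACACA and ELOVL5 overlap pseudogenes on the same strand, and that of FADS1 overlaps a microRNA gene. Whether exons overlap, and what this does to the counts, was not tested.

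ACSL3 activates long-chain fatty acids to acyl-CoA at the endoplasmic reticulum and on lipid droplets. ACSL3 (chr2:222860942-222944639, plus strand) was at 343, 298 and 325 CPM in untreated cells, 161, 149 and 148 CPM at 8 h, and 218, 212 and 235 CPM at 24 h. The groups did not overlap and the spread within each was small. ACSL3 was at -1.08 ± 0.05 after 8 h (adjusted p 1.07e-09, the smallest of the 10) and at -0.54 ± 0.05 after 24 h (adjusted p 5.36e-07).

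**Figure D2:**
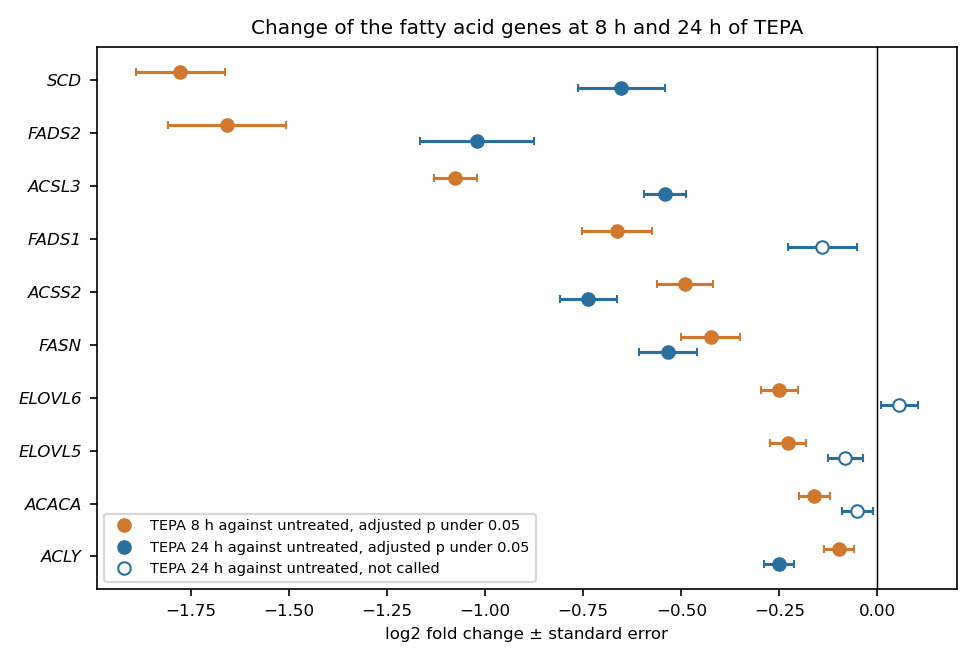
Log2 fold change of each fatty acid gene against untreated cells at 8 h (orange) and 24 h (blue) of TEPA, with standard errors from edgeR's quasi-likelihood test as bars. Filled points passed an adjusted p under 0.05. At 8 h the genes run from -1.78 for SCD to -0.10 for ACLY, and at 24 h from -1.02 for FADS2 to 0.06 for ELOVL6.

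Counted together at an adjusted p under 0.05, 10 of the 10 genes were lower at 8 h, where 24.5% of all 16556 tested genes were called lower. None was higher, against 25.2% of all genes, and the count was also 0 at an unadjusted p under 0.05 in edgeR's quasi-likelihood test and 0 with DESeq2. Beyond a log2 fold change of 0.5, 4 were lower at 8 h (SCD, FADS2, ACSL3 and FADS1) and 0 higher, against 7.67% and 10.1% of all genes. The median log2 fold change of the 10 was -0.46, with a range from -1.78 to -0.10, and the median of all genes was 0.00 when rounded. The 3 libraries at 8 h lay wholly below the untreated ones for 10 of the 10 genes and wholly above for 0, against 28.6% and 29.2% of all genes. Without untreated replicate 1, 9 genes were called lower and their median was -0.35.

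At 24 h 6 of the 10 were lower, against 26.8% of all genes, and 0 were higher, against 25.7%, with 0 higher also at an unadjusted p under 0.05 and with DESeq2. Beyond 0.5 on the log2 scale there were 5 lower (FADS2, ACSS2, SCD, ACSL3 and FASN) and 0 higher, against 8.46% and 10.2%. The median was -0.39, with a range from -1.02 to 0.06. Libraries did not overlap for 6 genes, all lower, against 28.9% of all genes lower and 28.4% higher. Without untreated replicate 1 the number lower stayed at 6, the number higher became 1 (ELOVL6), and the median was -0.33. Both comparisons used the same untreated libraries.

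The change between the times was tested directly, as 24 h against 8 h of TEPA. Here 7 genes were higher at 24 h, against 26% of all genes, and 2 were lower, against 28.8%. SCD was higher by a log2 fold change of 1.12 ± 0.11 (adjusted p 5.68e-07) and FADS2 by 0.64 ± 0.15 (adjusted p 0.00175). ACSL3 was at 0.54 ± 0.05 (adjusted p 6.23e-07), FADS1 at 0.52 ± 0.09 (adjusted p 0.000122) and ELOVL6 at 0.31 ± 0.05 (adjusted p 5.03e-05). These 5 genes had a higher level in every 24 h library than in any 8 h library. ELOVL5 at 0.15 ± 0.05 (adjusted p 0.0121) and ACACA at 0.11 ± 0.04 (adjusted p 0.0272) passed less firmly. ELOVL5 no longer passed without TEPA 8 h replicate 2 or 3 or TEPA 24 h replicate 3, with adjusted p from 0.00215 to 0.0625 over the libraries left out. ACACA no longer passed without TEPA 8 h replicate 1 or 3 or TEPA 24 h replicate 2, with adjusted p from 0.0196 to 0.0907. The 2 suppliers of acetyl-CoA moved the other way, ACLY at -0.15 ± 0.04 (adjusted p 0.00301) and ACSS2 at -0.25 ± 0.07 (adjusted p 0.00979). Beyond 0.5 on the log2 scale 4 genes were higher and 0 lower, against 10.4% and 10.8% of all genes. Libraries lay wholly above for 6 genes and wholly below for 2, against 29.6% and 32.4%. The median of the 10 was 0.23, and that of all genes was -0.02.

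**Figure D3:**
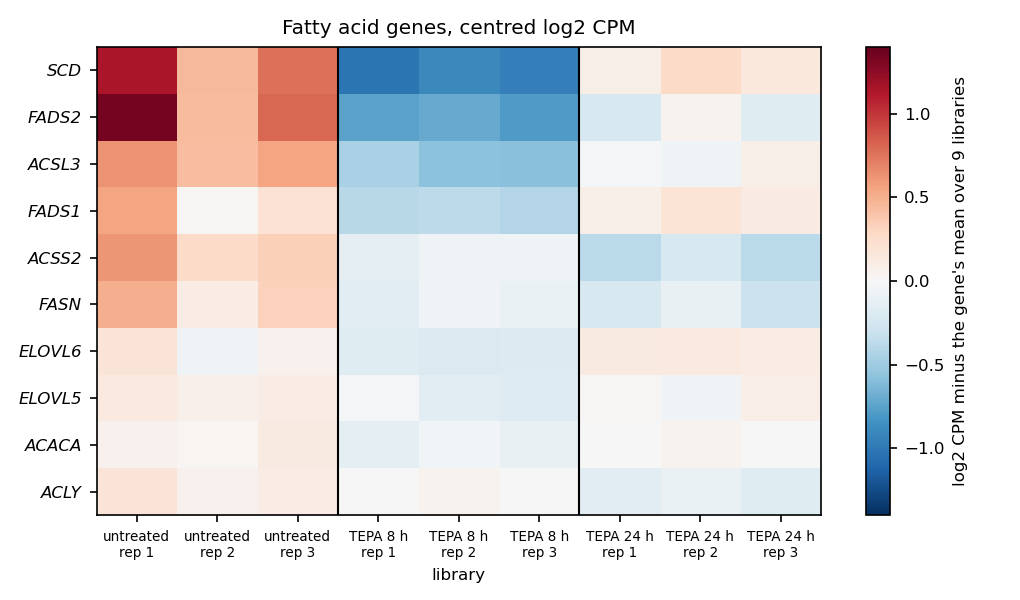
Log2 CPM of each fatty acid gene in each of the 9 libraries, centred on the gene's mean, with red above and blue below it and genes ordered by their change at 8 h. SCD and FADS2 span the scale, from -1.02 in TEPA 8 h replicate 1 (SCD) to 1.34 in untreated replicate 1 (FADS2), and ACLY and ACSS2 are lowest in the 24 h libraries.

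Among 11919 other genes with a mean of at least 100 counts, likeness to each member was measured as the root mean square difference of centred log2 CPM over the 9 libraries. For SCD the closest genes were CSF2 at 0.131, MARCKSL1 at 0.131 and GPRC5C at 0.137, and the closest of the 10 was FADS2, which ranked 12. FADS2 was closest to MARCKSL1 at 0.103, and SCD ranked 6 for it. FASN was closest to NDUFAF3 at 0.0513, with ACSS2 the nearest of the 10 at rank 55. Conversely FASN was the nearest of the 10 to ACSS2, at rank 35. For ACLY, ACACA, ELOVL5, ELOVL6, FADS1 and ACSL3 the nearest of the 10 ranked between 185 and 2628. The points share libraries and their depth, and these values only describe similar profiles. The measure was not scaled, so it depends on the size of a change as well as its shape. A rank therefore does not show whether members moved together.

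Most of the regulators listed were lower at 8 h too. The list mixes genes that promote the pathway with genes that restrain it, so its counts give no single direction of control. Of 14 regulators listed, 13 were tested, and after 8 h 9 of them passed as lower and 1 as higher (median log2 fold change -0.35), where 24.5% and 25.2% of all genes did. SREBF1 encodes the sterol regulatory element-binding protein most tied to fatty acid synthesis. It was at 567, 420.1 and 479.8 CPM in untreated cells, 175, 213 and 206 CPM at 8 h, and 429, 472 and 421 CPM at 24 h. Its 8 h libraries lay far below the rest, and the 24 h libraries overlapped the untreated ones. The log2 fold change of SREBF1 was -1.30 ± 0.09 after 8 h of treatment (adjusted p 2.09e-08), while after 24 h it was -0.15 ± 0.09 (adjusted p 0.163). That 24 h value passed with no low-count filter (adjusted p 0.000722) and without untreated replicate 2 (-0.25, adjusted p 0.0111). INSIG1, which holds the precursor of that factor in the endoplasmic reticulum and is itself one of its targets, was at 145, 94.5 and 120.1 CPM in untreated cells. It was at 24.7, 25.4 and 23.3 CPM at 8 h and at 55.8, 60.4 and 57.5 CPM at 24 h, with no overlap among the groups. INSIG1 was at -2.29 ± 0.11 after 8 h of treatment (adjusted p 8.44e-10), while after 24 h it was -1.05 ± 0.10 (adjusted p 4.97e-07). From 8 h to 24 h INSIG1 rose 2.37-fold (adjusted p 1.95e-07) and SREBF1 2.22-fold (adjusted p 3.5e-08). After 24 h 6 regulators passed as lower and 4 as higher (median -0.15), beside 26.8% and 25.7% of all genes, and the 4 became 2 without untreated replicate 2 or 3 or without TEPA 24 h replicate 1 or 2.

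A list of 7 genes for citrate export, the citrate steps and NADPH supply had 6 transcripts called lower and 1 called higher after 8 h (median -0.36), beside 24.5% and 25.2% of all genes. After 24 h 4 passed as lower and 0 as higher (median -0.20), beside 26.8% and 25.7%. At an unadjusted p under 0.05 in edgeR's quasi-likelihood test 1 was higher at 24 h, which was also 1 with DESeq2 and 1 without untreated replicate 3. PGD is an NADPH-producing enzyme of the pentose phosphate pathway. PGD was at 335, 308 and 316 CPM in untreated cells, 252, 252 and 244 CPM at 8 h, and 173, 182 and 170.0 CPM at 24 h. It stepped down without overlap, at a log2 value of -0.36 ± 0.04 after 8 h of treatment (adjusted p 3e-06), while after 24 h it was -0.87 ± 0.04 (adjusted p 1.9e-10).

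Electron donors and modifying enzymes of the pathway formed a list of 5 genes, with 3 lower and 0 higher after 8 h (median -0.13) and 3 lower and 1 higher after 24 h (median -0.26), beside the same shares of all genes. The 0 was also 0 at an unadjusted p under 0.05 in edgeR's quasi-likelihood test and with DESeq2. CYB5A encodes a cytochrome b5 that passes electrons to the desaturases. CYB5B encodes a related cytochrome b5, whose part in desaturation was not tested. CYB5A was at 38.3, 35.8 and 37.2 CPM in untreated cells, 33.3, 35.4 and 33.3 CPM at 8 h, and 56.7, 55.0 and 54.2 CPM at 24 h. It rose at 24 h, at 0.58 ± 0.05 (adjusted p 4.78e-08). At 8 h it was at -0.12 ± 0.05 (adjusted p 0.0381), a call lost without untreated replicate 1 or 3 or TEPA 8 h replicate 1 or 3, where adjusted p was at most 0.106, and with DESeq2 (0.0505). In edgeR's quasi-likelihood test the call was also lost with upper-quartile factors (0.0639) and with no low-count filter (0.0559). The same held for the replicate block (0.0603) and the 2 groups fitted alone (0.0561). CYB5B was at 124, 121 and 129 CPM, then at 93.0, 92.0 and 90.2 CPM, and then at 89.3, 88.5 and 94.7 CPM. It was lower at both times, at -0.44 ± 0.04 (adjusted p 3.38e-07) and -0.45 ± 0.04 (adjusted p 1.41e-07).

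Other elongation and desaturation genes numbered 15, of which 10 were tested. After 8 h 6 passed as lower and 1 as higher (median -0.13), and after 24 h 4 passed in each direction (median 0.00), again beside those shares of all genes. The 6 became 3 without untreated replicate 3. SCD5, the other human stearoyl-CoA desaturase, was at 29.4, 29.9 and 30.7 CPM in untreated cells, 20.2, 22.0 and 22.0 CPM at 8 h, and 21.4, 21.2 and 21.9 CPM at 24 h. Unlike SCD its TEPA groups overlapped, and its log2 fold change was -0.49 ± 0.05 after 8 h of treatment (adjusted p 2.34e-06), while after 24 h it was -0.48 ± 0.05 (adjusted p 1.7e-06). The difference between the times was 0.00 ± 0.05 for SCD5 (adjusted p 0.946). ELOVL7, an elongase of long saturated chains, was at 6.21, 5.56 and 6.36 CPM, then at 5.20, 4.91 and 4.65 CPM, and then at 3.57, 4.22 and 4.59 CPM. It was at -0.29 ± 0.11 after 8 h of treatment (adjusted p 0.0342), while after 24 h it was -0.56 ± 0.11 (adjusted p 0.000463). The 8 h call was lost without untreated replicate 1 or 3 or TEPA 8 h replicate 2 or 3, where adjusted p was at most 0.104, and with DESeq2 (0.0534).

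**Figure D4:**
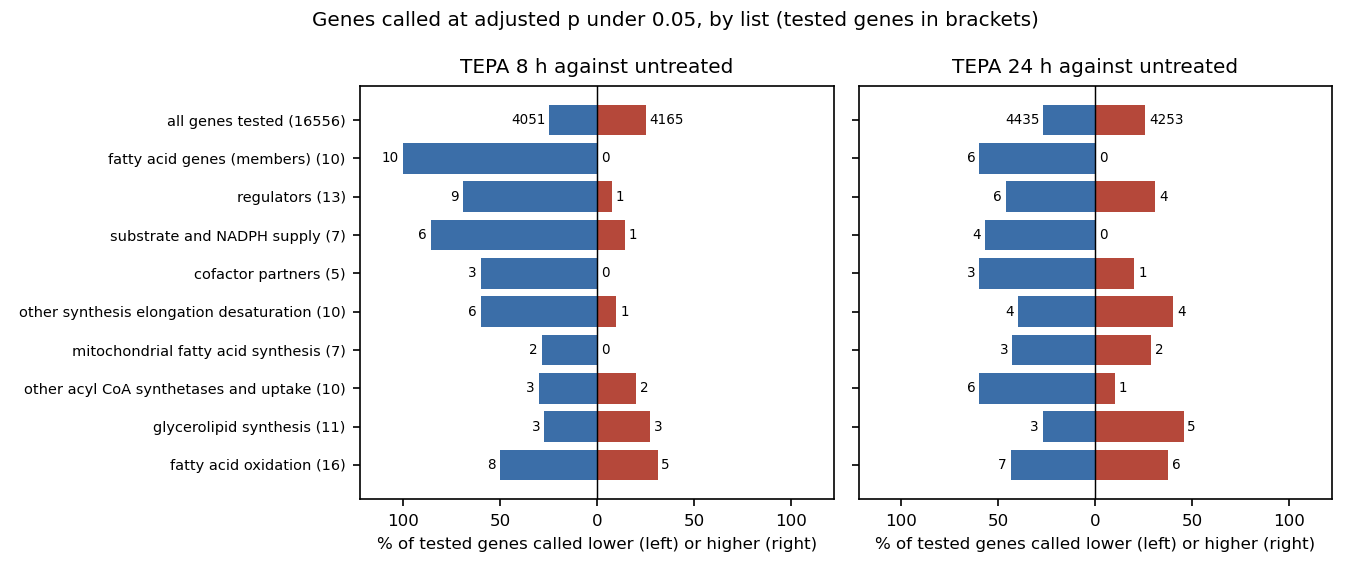
Percentage of tested genes called lower (blue, to the left) and higher (red, to the right) against untreated cells at an adjusted p under 0.05, for all genes tested, the 10 fatty acid genes and 8 lists of related genes, at 8 h and 24 h. Numbers beside the bars are counts of genes and those in brackets are genes tested. The fatty acid genes stand at 10 of 10 lower at 8 h and 6 of 10 at 24 h, beside 4051 and 4435 of 16556 genes.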

How the data were processed

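Poly(A) RNA of MDA-MB-231 cells was sequenced in paired ends from 9 libraries, 3 for each of untreated, TEPA 8 h and TEPA 24 h. After a FastQC check, the authors used HISAT2 for alignment to hg38 and featureCounts, in stranded paired mode, to count exonic reads under each gene name. What they deposited is the raw count of each library, not normalized. Groups were taken from the sample labels.

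From the counts, genes were filtered with filterByExpr at a minimum count of 10, scaled by TMM factors (0.978 to 1.039) and fitted over all 9 libraries with edgeR 4.0.16 in R 4.3.3, using the quasi-likelihood test. The Benjamini-Hochberg adjustment ran over the 16556 genes that passed, which held 99.9% of counts. A standard error is the absolute log2 fold change over the square root of its F. Replicate pairs all differed by more than sampling noise. With 3 libraries against 3, an exact permutation cannot go below 0.1, so single genes were judged in the model across all genes. Alternatives were RLE and upper-quartile factors, no filter, 10 counts in every library, mitochondrial genes left out, only the 2 groups compared, a replicate block, DESeq2 1.42.0, a log2 fold limit of 0.5 and each library left out in turn. The procedure was tested on simulated data.

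The 10 genes and the lists were chosen with earlier results of these data known. The genes named are the 10, SREBF1 and INSIG1, and from each list the 2 with the largest fold change against untreated cells at either time among genes called there with a mean of at least 100 counts. A gene named by these rules may be left unreported here. MARCKSL1 and the other genes with like profiles are the closest by the measure given. Gene positions, exon lengths and overlaps are from GENCODE 44 on hg38, which is not the annotation release used for counting, and promoter windows are from RefSeq on GRCh38.p14. FASN had no window there.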

Additional observations from a re-analysis of the deposited data

Results flagged for a closer look

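The change from 8 h to 24 h of TEPA was tested directly, as the difference between the log2 fold changes at the 2 times with edgeR's quasi-likelihood test, and 21 of the genes named differed at an adjusted p under 0.05. Of all 16556 genes tested, 28.8% were lower and 26% higher at the later time. The fatty acid genes, SREBF1 and INSIG1 were chosen with earlier results of these data known. The other genes named were picked for a large fold change against untreated cells at either time. That choice favours genes that differ between the times, so the 21 cannot be weighed against these shares.

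Among the fatty acid genes the log2 fold change at 24 h minus that at 8 h was 1.12 for SCD, 0.64 for FADS2, 0.54 for ACSL3, 0.52 for FADS1, 0.31 for ELOVL6, 0.15 for ELOVL5 and 0.11 for ACACA. It was -0.15 for ACLY and -0.25 for ACSS2. All 9 values came from comparisons that share the untreated libraries, which cancel in the difference.

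Among the other genes the difference was positive for INSIG1 at 1.24, SREBF1 at 1.15, CYB5A at 0.70, ETFDH at 0.69 and CPT2 at 0.19. It was negative for HSD17B8 at -1.26, ACSF3 at -1.13, SLC27A3 at -0.95, FABP5 at -0.72, LPIN3 at -0.71, PGD at -0.51 and GPAM at -0.46. The value for CPT2 did not pass without TEPA 24 h replicate 2 (adjusted p 0.0523).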

How the results depend on the processing

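The medians of the 10 fatty acid genes kept their direction under all alternatives run, and no scaling moved the median of all genes by more than 0.0265 on the log2 scale. With a log2 fold limit of 0.5, the number lower at 8 h became 4, and between the times the number lower became 0 and the number higher 4, as the limit removes smaller changes. With only the 2 groups compared, the median between the times was 0.25. Over the libraries left out in turn, that median ran from 0.22 to 0.26 and the number higher at 24 h against untreated cells from 0 to 1, the 1 (ELOVL6) without untreated replicate 1. Same-numbered libraries correlated in their deviations by -0.0801 to 0.0383, so the numbers were not taken as pairs. The replicate block gave 3821 genes lower and 3958 higher at 8 h, 4268 and 4087 at 24 h, and 4597 and 4161 between the times. Among the fatty acid genes the block lost the ACLY call at 8 h (-0.10, adjusted p 0.0658) and no other, and of the other genes named it lost CYB5A and ELOVL7 at 8 h and LPIN3 at 24 h.

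Values that changed sign were all small and not called. Against untreated cells at 24 h they were ELOVL6 at -0.00052 without untreated replicate 2, FADS1 at 0.021 without untreated replicate 1 and SLC27A3 at 0.047 without TEPA 24 h replicate 3. Between the times they were CYB5B at 0.011 with only the 2 groups compared and at 0.0046 without TEPA 24 h replicate 2, and SCD5 at -0.030 without TEPA 8 h replicate 1 and at -0.0067 without TEPA 24 h replicate 3. Over the libraries left out in turn the 24 h values ran from -0.00052 to 0.11 for ELOVL6, from -0.26 to 0.021 for FADS1 and from -0.15 to 0.047 for SLC27A3. Those between the times ran from -0.044 to 0.0046 for CYB5B and from -0.030 to 0.030 for SCD5. The cause was not tested. Each of the 10 genes had at least 1512 counts in every library, and all of them except ELOVL5 had their largest SD in the untreated libraries. SLC27A3, CYB5B and SCD5 are not among the 10, and SCD5 went down to 787 counts.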

Other observations

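Counts for 4 further lists are given beside the shares of all 16556 genes tested, which were 24.5% lower and 25.2% higher at 8 h and 26.8% lower and 25.7% higher at 24 h. Of 7 genes of mitochondrial fatty acid synthesis, 2 were lower and 0 higher at 8 h, with the 0 also 0 at an unadjusted p under 0.05 in edgeR's quasi-likelihood test and with DESeq2, and 3 were lower and 2 higher at 24 h. Their median log2 fold changes were -0.10 and -0.15. ACSF3, the malonyl-CoA synthetase of mitochondria, was at 23.6, 24.1 and 24.4 CPM in untreated cells, 19.4, 21.5 and 21.7 CPM at 8 h, and 8.85, 10.2 and 9.48 CPM at 24 h. At 24 h it was lower by a log2 fold change of -1.34 ± 0.07 (adjusted p 4.93e-10), and at 8 h by -0.20 ± 0.06 (adjusted p 0.0151), a call lost without TEPA 8 h replicate 1 (0.0715), where the 2 lower genes became 1. HSD17B8, a reductase subunit of the same pathway, was at 4.43, 3.39 and 4.01 CPM, then at 3.42, 3.42 and 4.14 CPM, and then at 1.49, 1.58 and 1.5 CPM. It was at -1.37 ± 0.14 at 24 h (adjusted p 9.63e-07) and overlapped untreated cells at 8 h (-0.10 ± 0.13, adjusted p 0.536). The 2 genes higher at 24 h became 1 without any 1 of the 3 untreated libraries or TEPA 24 h replicate 2.

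Of 14 other acyl-CoA synthetases and fatty acid uptake genes, 10 were tested. At 8 h 3 were lower and 2 higher, and at 24 h 6 were lower and 1 higher, with medians of -0.04 and -0.21. SLC27A3, of the fatty acid transport protein family, was at 7.36, 7.90 and 7.30 CPM in untreated cells, 12.4, 14.3 and 15.6 CPM at 8 h, and 7.28, 8.32 and 6.26 CPM at 24 h. It rose 1.87-fold at 8 h (adjusted p 3.2e-06) and was at -0.04 ± 0.11 at 24 h (adjusted p 0.762). FABP5, a cytosolic fatty acid binding protein, was at 13.6, 16.5 and 15.9 CPM, then at 17.7, 17.6 and 18.3 CPM, and then at 11.1, 9.66 and 11.9 CPM. It was lower at 24 h, at -0.50 ± 0.09 (adjusted p 0.000145). At 8 h it was at 0.22 ± 0.08 (adjusted p 0.0386), a call lost without any 1 library except untreated replicate 2, with adjusted p at most 0.156 and a value of 0.14 without untreated replicate 1. Without untreated replicate 1 the 3 lower genes at 8 h became 1 and the 1 higher at 24 h became 3. The 2 higher at 8 h became 1 without untreated replicate 3 or any 1 of the TEPA 8 h libraries.

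Glycerolipid synthesis, which uses the fatty acids, had 3 of 11 genes lower and 3 higher at 8 h, near the shares of all genes, and 3 lower and 5 higher at 24 h, with medians of -0.03 and 0.10. GPAM, the first acyltransferase of the pathway, was at 15.1, 20 and 19.9 CPM in untreated cells, 36.9, 34.0 and 34.5 CPM at 8 h, and 25.0, 25.6 and 26.0 CPM at 24 h. It rose at both times without overlap, 1.91-fold (adjusted p 2.39e-07) and 1.39-fold (adjusted p 0.000174). LPIN3, a phosphatidate phosphatase, was at 32.6, 34.7 and 32.4 CPM, then at 59.1, 56.9 and 62.6 CPM, and then at 36.4, 37.3 and 35.3 CPM. It rose 1.79-fold at 8 h (adjusted p 4.53e-09). At 24 h it was at 0.13 ± 0.05 (adjusted p 0.0387), a call lost without untreated replicate 1 or 3 or TEPA 24 h replicate 1 or 2, where adjusted p was at most 0.139. The 5 genes higher at 24 h became 3 without untreated replicate 3 or TEPA 24 h replicate 1 or 2.

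Fatty acid oxidation had 8 of 16 genes lower and 5 higher at 8 h, and 7 lower and 6 higher at 24 h, with medians of -0.18 and -0.05, beside 24.5% and 25.2% of all genes at 8 h and 26.8% and 25.7% at 24 h. ETFDH, which passes electrons from fatty acid oxidation to ubiquinone, was at 21.2, 19.6 and 20.8 CPM in untreated cells, 28.1, 27.9 and 25.3 CPM at 8 h, and 45.3, 42.8 and 43.0 CPM at 24 h. It stepped up without overlap, 1.32-fold (adjusted p 3.14e-05) and 2.13-fold (adjusted p 4.5e-10). CPT2, the inner-membrane carnitine palmitoyltransferase, was at 41.4, 36.1 and 37.4 CPM, then at 25.2, 26.2 and 26.3 CPM, and then at 29.1, 30.7 and 28.6 CPM. It was lower at both times, at -0.56 ± 0.06 (adjusted p 1.15e-06) and -0.38 ± 0.06 (adjusted p 4.21e-05). The 7 genes lower at 24 h became 4 without TEPA 24 h replicate 1, and the 6 higher became 3 without untreated replicate 3 or TEPA 24 h replicate 2 or 3.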
